A study of Mus musculus with 121 samples.

Results

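Cultured mouse fibroblasts that had been fed and starved in 24 h cycles were compared at 2 points of the free-running day that followed, 4 h and 16 h after its first collection. The cycles were the HL protocol, in which 12 h in rich medium with high glucose and insulin (H) was followed by 12 h in poor medium low in both (L). The groups were taken from the sample titles, which name protocol, a clock hour, the collection and the replicate: the titles HL_12_2 gave 4 libraries at 4 h (replicates 1, 2, 3 and 4) and the titles HL_12_5 gave 3 libraries at 16 h (replicates 1, 2 and 4), so that 7 of the 62 libraries of the series entered. All libraries came from one source, immortalised ear fibroblasts of a knock-in mouse that carries a luciferase fusion of the clock protein PER2 (genotype PER2::LUC, labelled passage P25), and all cultures had 3 cycles of medium changes every 12 h and then 12 h without changes before the first collection. In the HH protocol, used here for comparison with 3 libraries at each time, every change brought rich medium, and in LH the order of rich and poor was opposite to HL. The labelled hour is 12 for both groups, and the times of 4 h and 16 h follow from the collection number and the interval of 4 h between collections. The methods of the study describe replicates in general as biological, and the labels do not say how the libraries of a group relate to cultures, so the p-values measure the spread between these libraries.

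The circadian clock of mammalian cells is a loop of transcription and translation. The activators BMAL1 (gene Arntl) and CLOCK switch on genes through the E-box sequence, among them the Per and Cry genes, whose proteins return to block the activators. Another loop adds the REV-ERB repressors (Nr1d1 and Nr1d2) and the ROR activators, which compete at RORE sequences and set the rhythm of Arntl and Nfil3, and one more uses the D-box, at which DBP, TEF and HLF activate and NFIL3 represses. Fibroblasts in culture keep this clock when isolated, and in many dividing cells it runs beside the cell cycle.

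A pair of facts about the libraries bears on every value. The first is naming: the read summary of the study gives these libraries other names. By library number, 4 h replicate 4 stands there as LH collection 1 replicate 2, 16 h replicates 1 and 2 as LH collection 3 replicates 3 and 4, and 16 h replicate 4 as LH collection 4 replicate 1, while the numbers of 4 h replicates 1, 2 and 3 are not listed. The read summary's own HL libraries of collections 2 and 5 (3 and 3 libraries, titled LH) share none with the titles' HL libraries, and HH is named alike in both. Which naming is right cannot be told from these files, so the main results below are given by titles and then by library number.

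The second is that 2 of the 7 libraries stood apart, 1 in each group: 4 h replicate 3 and 16 h replicate 2. Pearson's r of log2(CPM + 1) across 8007 genes of at least 10 CPM in a group was 0.945 between these 2, 0.839 to 0.921 between either of them and the other 5, and 0.940 to 0.973 among the other 5. In 4 h replicate 3 and 16 h replicate 2, Ereg, a growth factor of the EGF family, stood at 1200 and 1215 CPM (counts scaled to a common library size and composition), against 9.71 to 42.0 in the other 5. Nupr1, a stress-induced nuclear protein, stood at 1100 and 1155 CPM against 40.0 to 123, and Osr1, a transcription factor of connective tissue cells, at 24.8 and 21.8 CPM against 131 to 309. The pair is split over both groups, and results are given with all 7 libraries and again with the other 5 (3 at 4 h and 2 at 16 h), a choice made after the data were seen. Because the pair was left out for values of these same data, p-values from the other 5 may be too small. The part of the pair in any single result was not tested.

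**Figure D1:**
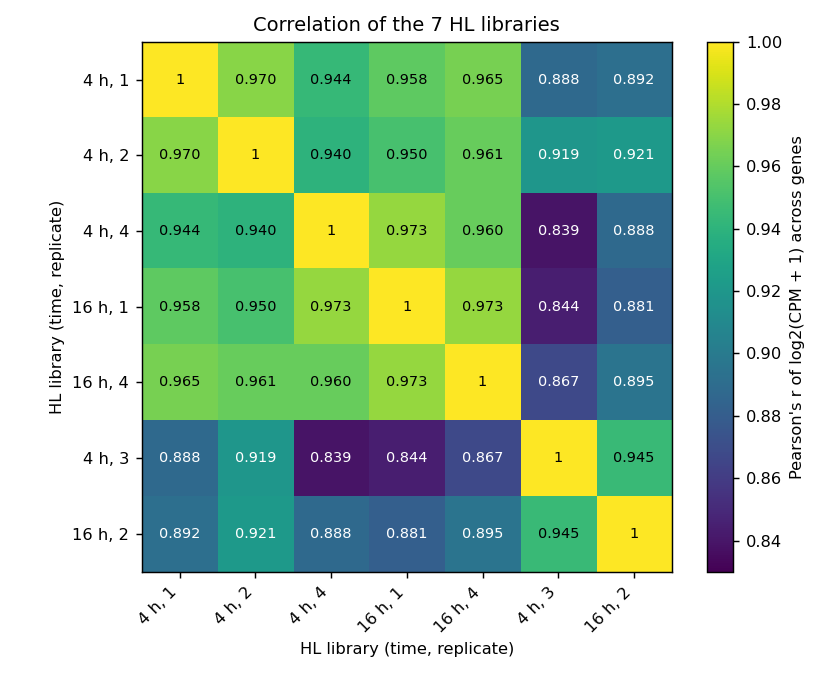
Pearson's r of log2(CPM + 1) across genes for each pair of the 7 HL libraries, named by time and replicate, with lighter colours for higher r. The libraries 4 h replicate 3 and 16 h replicate 2 correlate at 0.945 with each other and at 0.839 to 0.921 with the rest, while the other 5 lie between 0.940 and 0.973 whether or not they share a time.

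The time of collection did not order the other 5 libraries either. The highest r among them, 0.973, was found between both remaining 16 h libraries and, equally, between 4 h replicate 4 and 16 h replicate 1. The libraries held 4617532 to 7187994 counts, so that 1 CPM is 4.47 to 7.32 counts, and a count of 0 allows up to 0.410 to 0.672 CPM (3 counts, counting error only). All 12 fibroblast markers reached 1 CPM, with a summed level of 23730 to 42570 CPM at 4 h and 32690 to 35580 CPM at 16 h. Of the markers of other cell types, 1 of 7 keratinocyte, 5 of 8 leukocyte, 1 of 6 endothelial, 1 of 5 melanocyte, 1 of 5 chondrocyte, 1 of 4 adipocyte, 0 of 6 skeletal muscle and 0 of 4 Schwann cell genes reached it. Krt5, Krt1, Tyr, Dct, Myod1, Ckm and Sox10 were at 0 in all 7 libraries. Where 1 gene of a list reached that level, it was Cdh1 for keratinocytes (0.599 to 5.01 CPM) and Kdr for endothelial cells (36.7 to 196 CPM). For melanocytes it was Mitf (8.97 to 26.8 CPM), for chondrocytes Sox9 (416.4 to 728.5 CPM) and for adipocytes Fabp4 (5.38 to 21.4 CPM). The summed leukocyte markers ranged from 20.6 to 47.5 CPM at 4 h and from 17.8 to 50.6 CPM at 16 h.

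The promoters of the genes on which the comparison turns are shown because the clock proteins act through short letters in them. Each is 300 bases of RefSeq sequence on GRCm38.p6, from 250 bases before the gene's start, written 5′ to 3′ along the gene, with capitals marking an E-box (CACGTG), a D-box (TTATGTAA), a RORE core (AGGTCA, or TGACCT where it lies on the other strand) or a CHR (TTTGAA or TTCAAA, an element of genes that peak in mitosis). The letters were searched on both strands, together with the CRE (TGACGTCA) and E2F (TTTGGCGC) motifs and the CCAAT box. No motif in capitals overlaps another motif, and 2 CCAAT boxes of Ube2c, on opposite strands, overlap each other.
Nr1d1 (chr11:98775328-98775627, minus strand): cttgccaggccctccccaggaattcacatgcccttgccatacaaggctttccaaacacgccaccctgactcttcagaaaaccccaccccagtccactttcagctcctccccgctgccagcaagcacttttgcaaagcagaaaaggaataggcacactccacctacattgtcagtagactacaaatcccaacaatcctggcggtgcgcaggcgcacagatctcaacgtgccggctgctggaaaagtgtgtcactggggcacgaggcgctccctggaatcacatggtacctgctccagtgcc
Nr1d2 (chr14:18239057-18239356, minus strand): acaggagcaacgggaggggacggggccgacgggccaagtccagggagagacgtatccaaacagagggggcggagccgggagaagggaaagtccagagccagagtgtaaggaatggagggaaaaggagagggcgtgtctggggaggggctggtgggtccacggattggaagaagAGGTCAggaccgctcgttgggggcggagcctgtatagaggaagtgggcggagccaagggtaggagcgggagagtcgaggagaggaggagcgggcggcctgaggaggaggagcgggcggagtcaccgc
Dbp (chr7:45704997-45705296, plus strand): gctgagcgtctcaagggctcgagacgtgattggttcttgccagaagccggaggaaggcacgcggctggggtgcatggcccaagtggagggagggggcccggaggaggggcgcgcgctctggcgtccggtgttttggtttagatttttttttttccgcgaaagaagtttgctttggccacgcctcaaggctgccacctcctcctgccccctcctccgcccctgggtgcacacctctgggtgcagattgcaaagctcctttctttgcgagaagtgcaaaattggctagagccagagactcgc
Tef (chr15:81811164-81811463, plus strand): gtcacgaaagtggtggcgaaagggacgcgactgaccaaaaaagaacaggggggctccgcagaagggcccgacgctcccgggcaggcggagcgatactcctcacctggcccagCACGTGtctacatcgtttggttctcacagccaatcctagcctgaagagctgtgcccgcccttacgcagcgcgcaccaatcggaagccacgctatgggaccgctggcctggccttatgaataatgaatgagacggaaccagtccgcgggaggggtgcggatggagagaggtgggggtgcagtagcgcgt
Per3 (chr4:151044616-151044915, minus strand): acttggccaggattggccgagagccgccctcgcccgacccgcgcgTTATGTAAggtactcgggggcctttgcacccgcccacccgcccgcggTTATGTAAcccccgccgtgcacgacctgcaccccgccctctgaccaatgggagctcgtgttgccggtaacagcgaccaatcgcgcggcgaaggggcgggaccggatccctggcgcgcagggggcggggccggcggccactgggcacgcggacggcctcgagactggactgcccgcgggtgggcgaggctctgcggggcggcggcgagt
Nfil3 (chr13:52980990-52981289, minus strand): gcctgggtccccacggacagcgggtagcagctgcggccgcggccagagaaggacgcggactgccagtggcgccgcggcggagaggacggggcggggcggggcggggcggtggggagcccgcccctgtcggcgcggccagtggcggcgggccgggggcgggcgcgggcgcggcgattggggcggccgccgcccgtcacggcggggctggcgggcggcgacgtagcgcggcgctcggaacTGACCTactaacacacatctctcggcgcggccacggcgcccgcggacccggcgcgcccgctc
Ube2c (chr2:164769679-164769978, plus strand): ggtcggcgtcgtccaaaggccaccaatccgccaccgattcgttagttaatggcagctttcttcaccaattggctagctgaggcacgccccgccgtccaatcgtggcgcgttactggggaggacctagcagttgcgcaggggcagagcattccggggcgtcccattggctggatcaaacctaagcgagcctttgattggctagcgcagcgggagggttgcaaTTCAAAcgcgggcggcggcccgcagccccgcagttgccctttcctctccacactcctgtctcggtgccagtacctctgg
Hmmr (chr11:40733388-40733687, minus strand): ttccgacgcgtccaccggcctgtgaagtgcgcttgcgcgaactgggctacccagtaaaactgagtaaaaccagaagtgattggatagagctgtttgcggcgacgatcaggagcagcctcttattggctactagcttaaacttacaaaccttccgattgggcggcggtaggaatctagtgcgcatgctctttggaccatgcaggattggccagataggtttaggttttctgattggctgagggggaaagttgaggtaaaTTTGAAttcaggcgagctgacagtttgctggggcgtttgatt
Among all 32851 promoters of this length in the RefSeq table, 7.15% held an E-box, 0.938% a D-box, 16.3% the RORE core, 17.9% a CHR, 1.79% a CRE, 0.514% the E2F motif and 37.4% a CCAAT box. Per3 held 2 D-boxes, beginning 205 and 158 bases before its start. Tef has 2 promoters in the table and each held 1 E-box, in the promoter shown 138 bases before the start. Nr1d2 and Nfil3 each held 1 RORE core, 77 and 12 bases before the start, and the windows of Nr1d1 and Dbp held none of the motifs written in capitals, which says nothing of sequence outside them. Ube2c held a CHR 29 bases before its start and Hmmr held one 8 bases after it.

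Over the whole transcriptome, the comparison of HL at 16 h with HL at 4 h called no gene. With all 7 libraries, edgeR's quasi-likelihood test put 0 of 13292 genes (0%) past a Benjamini-Hochberg adjusted p of 0.05, and the smallest adjusted p was 0.389, for Nr1d1. At an unadjusted p under 0.05 there were 248 genes, 139 higher at 16 h (1.05% of those tested) and 109 lower (0.82%), and DESeq2 on the same libraries called 3 genes. The values of all 3 16 h libraries lay above all 4 h values in 1.74% of genes and below them in 1.78%. With the other 5 libraries, 4 genes (0.0301%) passed, and all 4 belonged to the clock: Nr1d1, Dbp, Nr1d2 and Tef. At an unadjusted p, 214 genes (1.61%) were then higher and 285 (2.14%) lower at 16 h.

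Below, "higher" and "lower" describe levels at 16 h against 4 h, and only genes past the adjusted threshold in the fit named are said to have risen or fallen. Values per library are in CPM and in the order of replicates 1, 2, 3 and 4 at 4 h and of replicates 1, 2 and 4 at 16 h, so that the libraries that stand apart are the third and the sixth value. Log2 fold changes are of 16 h over 4 h with their standard errors. In RNA from whole cultures, fewer cells of a kind and less RNA per cell cannot be told apart.

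Of the genes tested, Nr1d1 had the smallest p with all 7 libraries. Nr1d1 (REV-ERBα, ENSMUSG00000020889, on mm10 chr11:98767932-98775333, minus strand) stood at 20.6, 12.7, 18.2 and 8.34 CPM at 4 h and at 151, 52.6 and 86.0 CPM at 16 h. Every 16 h library lay above every 4 h library, those that stand apart included, and the group means were 14.9 ± 5.52 (SD, n = 4) and 96.6 ± 50.1 CPM (SD, n = 3). The log2 fold change was 2.70 ± 0.39 (unadjusted p = 2.92e-05, adjusted p = 0.389), and with the other 5 libraries Nr1d1 rose by 3.14 ± 0.30 (adjusted p = 1.43e-05). Its paralog Nr1d2 (REV-ERBβ) stood at 21.7, 21.4, 49.1 and 14.9 CPM at 4 h and at 72.9, 34.7 and 109 CPM at 16 h. Here the groups overlapped through the libraries that stand apart, of which the 4 h one was above the 16 h one. The log2 fold change was 1.44 ± 0.44 with all libraries (unadjusted p = 0.00783) and Nr1d2 rose by 2.25 with the other 5 (adjusted p = 4.91e-05). Nr1d1 overlaps Thra on the opposite strand, and whether reads were counted by strand is not given in the sources used here.

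Dbp and Tef, activators at the D-box, were the other genes called with the 5 libraries. Dbp, which encodes a PAR bZIP transcription factor driven by the clock, stood at 4.03, 7.72, 4.39 and 2.6 CPM at 4 h and at 42.9, 7.15 and 77.5 CPM at 16 h. The 16 h library that stands apart lay within the range of the 4 h libraries, and the others were above it. The log2 fold change was 3.19 ± 0.65 (unadjusted p = 0.000479), and with the other 5 libraries Dbp rose by 3.69 (adjusted p = 1.43e-05). Tef, of the same protein family, stood at 66.5, 57.8, 57.3 and 69.0 CPM at 4 h and at 155, 62.6 and 243 CPM at 16 h, with the same library alone inside the 4 h range. Its log2 fold change was 1.29 ± 0.36 (unadjusted p = 0.00429), and with the other 5 libraries it rose by 1.63 (adjusted p = 0.000843). Leaving out 1 library moved the log2 fold change of Tef to between 0.80 and 1.67. Hlf, the remaining member of that family, stood at 66.3, 102, 84.3 and 31.6 CPM at 4 h and at 30.4, 60.5 and 77.1 CPM at 16 h, with a log2 fold change of -0.34 ± 0.40. Dbp and Tef overlap Sphk2 and the gene model Gm17597 on the opposite strand.

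Nfil3, the repressor that acts at the same D-box, had the opposite sign. It stood at 19.7, 16.2, 11.4 and 13.7 CPM at 4 h and at 4.69, 4.47 and 4.91 CPM at 16 h. All 16 h libraries lay below all 4 h libraries and close together, and the libraries that stand apart were among the rest. The log2 fold change was -1.69 ± 0.32 (unadjusted p = 0.000304, adjusted p = 1) with all libraries and -1.77 with the other 5 (adjusted p = 0.19), and only DESeq2 called it.

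**Figure D2:**
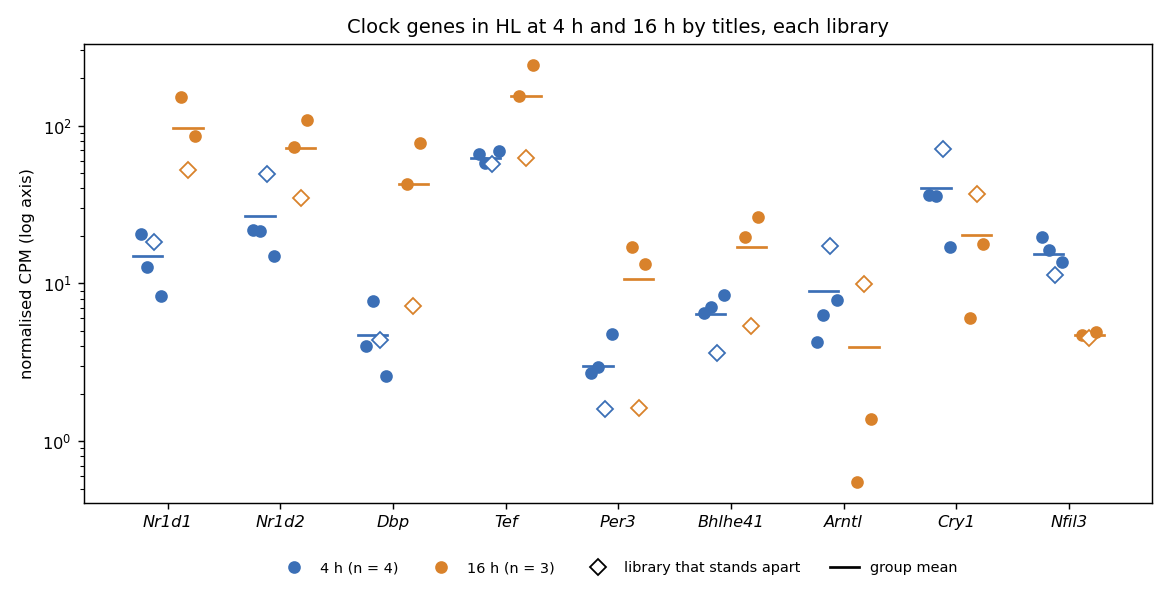
Level of 9 clock genes in each HL library at 4 h (blue, n = 4) and 16 h (orange, n = 3) in normalised CPM on a log axis, with diamonds for the libraries that stand apart and lines at the group means. Every 16 h value of Nr1d1 (52.6 to 151 CPM) lies above every 4 h value (8.34 to 20.6) and every value of Nfil3 below, whereas for Dbp, Tef and Per3 the diamond of 16 h lies among the 4 h values.

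The period and cryptochrome genes, the repressors of the core loop, did not move as one. Per3 stood at 2.69, 2.97, 1.60 and 4.78 CPM at 4 h and at 17.0, 1.61 and 13.3 CPM at 16 h, high in 2 of 3 16 h libraries. Its log2 fold change was 1.80 ± 0.67 (unadjusted p = 0.021) with all libraries and 2.10 (adjusted p = 0.11) with the other 5. Per1 stood at 5.19 to 11.6 CPM at 4 h and 6.63 to 16.3 CPM at 16 h, with a log2 fold change of 0.42 ± 0.41. Per2, the gene that carries the luciferase fusion in these cells, was near the limit of detection: it had no count in 4 h replicate 1, 3.96, 2.40 and 1.09 CPM in the other 4 h libraries and 1.38, 0.537 and 3.34 CPM at 16 h. With such values the log2 fold change was -0.09 ± 1.04, so that a change of 2-fold in either direction cannot be told from none. What sets this spread was not tested. Cry1 stood at 36.5, 36.0, 71.5 and 17.0 CPM at 4 h and at 6.07, 37.0 and 17.9 CPM at 16 h. Its log2 fold change was -0.99 ± 0.57 (unadjusted p = 0.114) and, with the other 5 libraries, -1.32 (unadjusted p = 0.00343). Cry2 had a log2 fold change of -0.58 ± 0.52, which 4 h replicate 3 set, at 40.5 CPM against 8.89 to 13.1 in the other libraries, and of 0.28 with the other 5.

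The DEC repressors, which compete with CLOCK and BMAL1 at E-boxes, had the sign of the REV-ERB genes. Bhlhe41 (DEC2) stood at 6.49, 7.12, 3.59 and 8.48 CPM at 4 h and at 19.6, 5.37 and 26.3 CPM at 16 h, with a log2 fold change of 1.40 ± 0.49 (unadjusted p = 0.0165) and, with the other 5 libraries, of 1.63 (adjusted p = 0.11). Bhlhe40 (DEC1) had a log2 fold change of 0.80 ± 0.39 (unadjusted p = 0.0663). Ciart, a repressor of CLOCK and BMAL1, stood at no more than 1.39 CPM at 4 h and 3.14 CPM at 16 h. Of the 11 repressors, 4 were higher and 1 lower at an unadjusted p of 0.05, against 1.05% and 0.82% of all genes, and none passed the adjusted threshold. Their median log2 fold change was 0.80 against -0.00282 over all genes, and it ran from 0.43 without 16 h replicate 4 to 1.10 without 16 h replicate 2. With the other 5 libraries 2 of the 11, both REV-ERB genes, passed, against 0.0301% of all genes, and the median was 1.14.

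Among the 7 activators no gene was called and none had an unadjusted p under 0.05 with all libraries. Arntl, which encodes BMAL1, stood at 4.26, 6.33, 17.2 and 7.79 CPM at 4 h and at 0.552, 9.84 and 1.37 CPM at 16 h. In each group the library that stands apart was the highest, so that the log2 fold change was -1.19 ± 0.83 (unadjusted p = 0.18) with all libraries and -2.70 (unadjusted p = 0.00077, adjusted p = 0.65) with the other 5. Clock stood at 51.3 to 85.2 CPM at 4 h and 55.9 to 105 CPM at 16 h, with a log2 fold change of 0.32 ± 0.27, and that of Rora was 0.15 ± 0.51. Arntl2, Npas2 and Rorb lay under 10 CPM in every library. The median of the list was 0.15 with all libraries, -0.50 with the other 5 and -0.24 by library number.

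The other output factors were flat or low. Klf9, Nampt, Wee1, Klf10 and Tspan4 had log2 fold changes from -0.24 to 0.37, and Cdkn1a, a cell cycle inhibitor, had -0.13 ± 0.44. Usp2 stood at 1.78 to 3.83 CPM at 4 h and 0.393 to 2.48 CPM at 16 h. Its log2 fold change ran from -2.22 to -0.85 when 1 library was left out. Klf15 had at most 0.589 CPM in any library. Of the 11 output factors Dbp and Tef were higher at an unadjusted p, against 1.05% of all genes. The median was 0.01, against 0.91 in HH and 0.94 by library number. None of the 7 clock kinases and ligases tested had an unadjusted p under 0.05, and their median was -0.04.

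HH at the same times shows what these genes do without starvation phases, in libraries whose names are not in dispute. The HH comparison of 16 h with 4 h called 19 genes (0.143%), 13 higher and 6 lower. In HH, Dbp rose by 2.87 (adjusted p = 8.47e-06), Tef by 1.44 (adjusted p = 0.000117), Nr1d2 by 1.12 (adjusted p = 0.0323) and Per3 by 2.16 (adjusted p = 0.0232). For these 4 genes the difference between the HL change and the HH change ran from -0.36 to 0.30 on the log2 scale with all libraries, with unadjusted p from 0.626 to 0.712 and standard errors of 0.43 to 0.84. With the other 5 libraries the difference of Nr1d2 was 1.13 (unadjusted p = 0.0278). Nr1d1, in contrast, had a log2 fold change of -0.60 ± 0.19 in HH (adjusted p = 0.33), and the HL change exceeded the HH change by 3.27 ± 0.78 (unadjusted p = 0.000378, adjusted p = 1). Cry1 rose by 1.56 in HH (adjusted p = 0.0232) and the HL change minus the HH change was -2.60 (unadjusted p = 0.00135), and Per2 rose by 3.79 in HH (adjusted p = 0.00469) against a difference of -3.89 (unadjusted p = 0.00354). Tspan4 rose by 1.27 in HH (adjusted p = 0.000281) against 0.01 ± 0.26 in HL, a difference of -1.29 (unadjusted p = 0.00146).

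The medians of the 6 collections, of 2 to 4 libraries each, place this difference of Nr1d1 within the day. In HL by titles they were 11.2, 15.4, 20.6, 91.7, 86.0 and 87.4 CPM from 0 h to 20 h, and in HH they were 13.1, 48.5, 147, 98.3, 29.7 and 11.3 CPM. The highest median thus stood at 12 h in HL and at 8 h in HH, and the HL median was still at 87.4 CPM at 20 h, when that of HH was back at 11.3. For Dbp the medians were 3.83, 4.21, 7.42, 28.7, 42.9 and 53.6 CPM in HL and 5.57, 5.38, 47.9, 57.0, 35.4 and 14 CPM in HH, which put 16 h above 4 h in both. In HL the neighbouring collections at 12 h, 16 h and 20 h overlapped for both genes. From 8 h to 20 h, every HL library by titles has an LH name in the read summary, so this HL course holds for the titles only. By library number, HL at 4 h holds libraries titled LH collection 3, a group with Nr1d1 at 37.4 to 151 CPM. The course by library number was not worked out.

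By an interaction test over collections 2 and 5 of all protocols, no gene passed for the HL change minus the HH change (0%) or the HL change minus the LH change (0%), with the smallest adjusted p at 1 and 0.33. At an unadjusted p under 0.05, 413 genes differed from HH, 1.33% of genes above 0 and 1.78% under 0, and 1196 differed from LH. Leaving out 1 HL library moved the first count to between 350 and 729, the highest without 4 h replicate 4, and the second to between 694 without 16 h replicate 2 and 1963 without 4 h replicate 3. The LH group at 4 h holds a library of 104912 counts, and without it 1457 genes differed from LH. DESeq2 called 0 genes for the first and 2 for the second, among them Csf1r. By edgeR, the 5 smallest unadjusted p for HL minus HH belonged to Nr1d1, Stmn1 (1.86), Ddx60 (-2.05), Tmed2 (-0.99) and Eif4a2 (-1.47). Stmn1 encodes the microtubule regulator stathmin and Ddx60 an interferon-induced helicase, and groups of both kinds are described below. For HL minus LH by titles, Zfp345, Bok, Pitpnm2 and Thap3 were among the 5 of smallest p. This LH comparison includes libraries of collection 5 that the read summary names HL.

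Grouping by library number turned the sign of several clock genes and left that of others. It called 6 genes (0.0451%): Dbp (2.27, adjusted p = 0.00164), Tef (1.30, adjusted p = 0.00164) and Tspan4 (0.94, adjusted p = 0.0451) rose, and Top2a (-1.32), Lox (-0.84) and Spon2 fell. Dbp and Tef were thus higher at 16 h under both namings and in HH. Nr1d1 had a log2 fold change of -1.20 ± 0.29 by library number (adjusted p = 0.378), the sign it had in HH and the reverse of that by titles, and Per2 (3.56), Cry1 (1.18) and Tspan4 (0.94) likewise had the signs seen in HH. Nfil3 had -0.08 by library number.

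**Figure D3:**
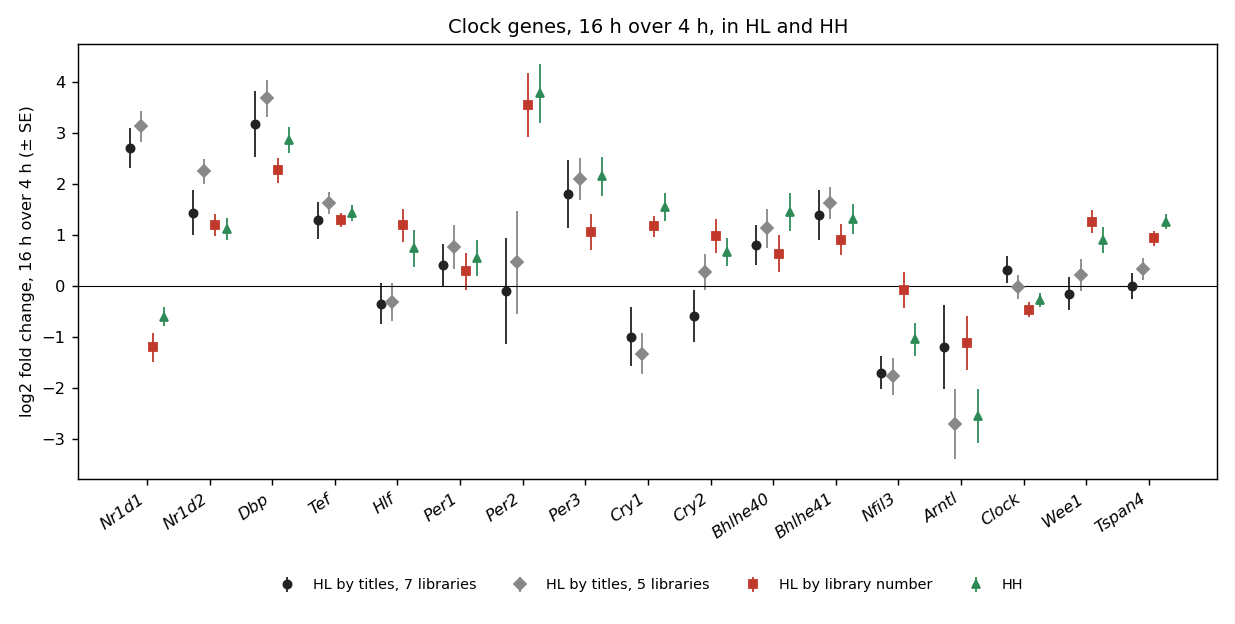
Log2 fold change of 16 h over 4 h with its standard error for 17 clock genes, in HL by titles with all 7 libraries (black) and the other 5 (grey), in HL by library number (red) and in HH (green). Dbp, Tef, Nr1d2, Per3 and Bhlhe41 lie above 0 in all comparisons, while Nr1d1 lies at 2.70 by titles, -1.20 by library number and -0.60 in HH.

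Beyond the clock, genes of mitosis were mostly higher at 16 h by titles. Of 56 mitosis genes, all tested, 49 had a positive log2 fold change, 8 were higher at an unadjusted p of 0.05 and none lower, against 1.05% and 0.82% of all genes, and none passed the adjusted threshold. The median was 0.68, and with the other 5 libraries it was 0.64, with 10 higher and none lower, against 1.61% and 2.14% of all genes. Ube2c, the ubiquitin-conjugating enzyme of the anaphase-promoting complex, stood at 8.96, 7.12, 9.98 and 13.5 CPM at 4 h and at 24.2, 19.5 and 16.3 CPM at 16 h. All 16 h values lay above all 4 h values, and the log2 fold change was 1.01 ± 0.30 (unadjusted p = 0.00705, adjusted p = 1). Hmmr, a spindle and hyaluronan-binding protein, stood at 1.57, 3.36, 2.20 and 7.24 CPM at 4 h and at 14.1, 10.7 and 7.65 CPM at 16 h, again without overlap, with a log2 fold change of 1.56 ± 0.52 (unadjusted p = 0.0124). Dlgap5, a spindle assembly factor, and Prc1, which organises the central spindle, had 2.04 ± 0.71 and 0.96 ± 0.37 and also did not overlap.

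The mitosis genes did not follow the time of collection in every library. Their score, the median over members of a library's deviation from the mean of all 7 on the log2 scale, was -0.58, -0.59, -0.25 and 0.33 at 4 h and 0.76, 0.42 and -0.002 at 16 h. Replicate 4 at 4 h thus scored above replicate 4 at 16 h, and Top2a, the topoisomerase of dividing cells, stood at 106 CPM in it against 37.4 to 40.5 in the other 4 h libraries and 74.2 to 152 at 16 h. Leaving out this library raised the median of the list to 0.92. In HH the median was -0.57, with 8 of 56 positive, and by library number it was -0.73, with 4 of 56 positive. The HL change minus the HH change had a median of 1.21 over the list and -0.04 over all genes, and 13 of 56 members were above 0 at an unadjusted p, against 1.33% of all genes. Of the 46 mitosis genes with a RefSeq promoter, 34 held the CHR and 35 a CCAAT box, against 14.3% and 43.4% of the 10175 tested genes with one. DNA replication genes, which act earlier in the cell cycle, had a median of 0.10 over 42 members, 26 of them positive and none with an unadjusted p under 0.05. That median was -0.03 with the other 5 libraries, -0.31 in HH and -0.45 by library number.

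Of the genes of the extracellular matrix, the collagen chains mostly had a positive change at 16 h by titles. Of 21 collagen chains tested, 20 had a positive log2 fold change against 49.4% of all genes, and 4 were higher at an unadjusted p, against 1.05% of all genes. None passed the adjusted threshold, and the median was 0.47. Col6a1, of the beaded-filament collagen VI, stood at 786, 819, 788 and 1158 CPM at 4 h and at 1219, 1411 and 1215 CPM at 16 h, without overlap, with a log2 fold change of 0.53 ± 0.20 (unadjusted p = 0.0256). Col3a1, a fibrillar collagen, stood at 875, 696, 368 and 1238 CPM at 4 h and at 1368, 1048 and 1766 CPM at 16 h, with 0.81 ± 0.35. Col5a3 and Col16a1 had 1.01 ± 0.40 and 0.75 ± 0.27. In all 4 genes the highest 4 h value was that of replicate 4, and without that library the median of the list was 1.01. With the other 5 libraries it was 0.27, with 4 higher and 1 lower against 1.61% and 2.14% of all genes, and 4 h replicate 3, which stands apart, had the lowest collagen score of the 7 libraries (-0.84). Among 41 matrix glycoproteins and proteoglycans, 28 were positive with a median of 0.22, and 2 were higher at an unadjusted p, against 1.05% of all genes: Fn1, fibronectin (0.62 ± 0.28), and Hspg2, perlecan (0.59 ± 0.25). The median of the 41 was 0.10 with the other 5 libraries, with 2 higher and 2 lower against 1.61% and 2.14% of all genes, and -0.21 by library number. Leaving out 1 library moved it to between 0.11 and 0.43. Of 24 genes of collagen processing and 15 metalloproteinases and TIMPs, none had an unadjusted p under 0.05, and the medians were 0.15 and 0.24, or 0.03 and 0.07 with the other 5 libraries. Lox, which cross-links collagen, and Mmp14, a membrane-bound collagenase, had 0.41 ± 0.26 and 0.54 ± 0.35 in HL, fell by 0.69 and 0.61 in HH (adjusted p = 0.00401 and 0.0277) and had -0.84 and -0.88 by library number. In HL they moved to 0.69 and 0.94 without 4 h replicate 4, Mmp14 to 0.22 without 16 h replicate 2, and both to 0.25 and 0.06 with the other 5 libraries. The collagen median was -0.16 in HH and -0.53 by library number.

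**Figure D4:**
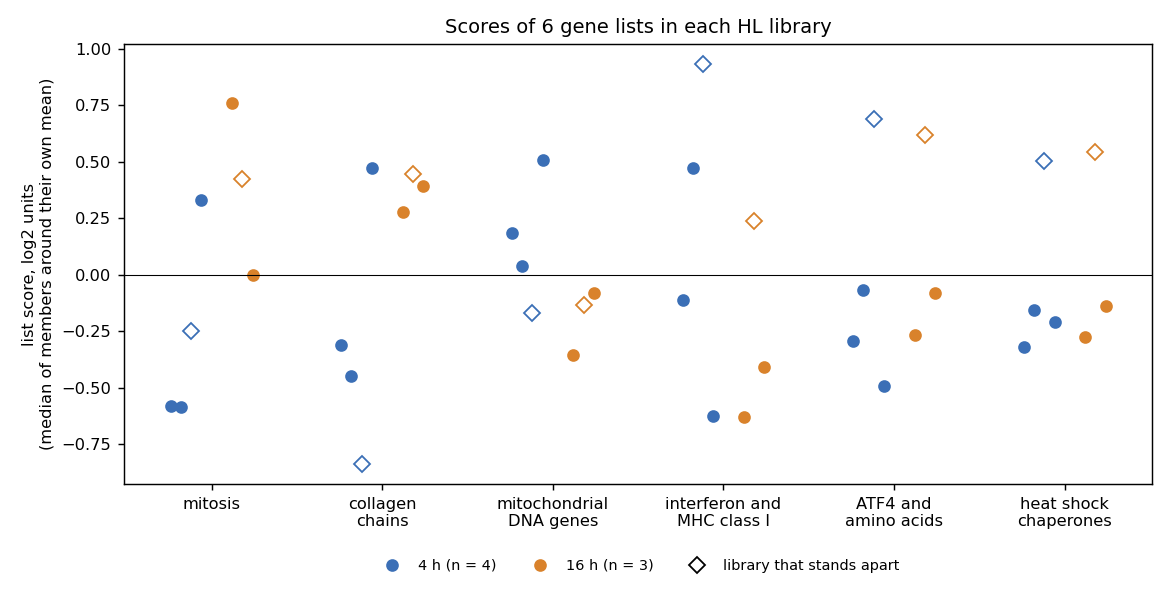
Score of 6 gene lists in each HL library at 4 h (blue, n = 4) and 16 h (orange, n = 3), in log2 units, as the median over list members of the deviation from their own mean over the 7 libraries, with diamonds for the libraries that stand apart. Mitosis and collagen scores are higher at 16 h except in 4 h replicate 4, which lies among the 16 h libraries for mitosis (0.33) and above all of them for collagen (0.47), and the ATF4 and heat shock scores separate the diamonds from all other libraries.

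Lists with a negative median included those of the mitochondrial genome, the respiratory chain, the ribosome and the interferon response. All 12 mitochondrial DNA genes tested had a negative log2 fold change, with a median of -0.29 and -0.33 with the other 5 libraries, and 2 were lower at an unadjusted p, against 0.82% of all genes. Without 4 h replicate 4, which had the highest score of the list, the median was -0.18. mt-Nd1, a subunit of complex I, stood at 6141, 5897, 4973 and 4930 CPM at 4 h and at 3485, 3687 and 4546 CPM at 16 h, without overlap, with -0.49 ± 0.20 (unadjusted p = 0.0301). mt-Co3, of cytochrome oxidase, had -0.65 ± 0.28. The median of the list was 0.15 in HH and 0.29 by library number. Of 78 cytosolic ribosomal protein genes, 7 had a positive log2 fold change, with a median of -0.23. Of them, 2 genes, Rpl35a and Rps23, of the large and the small subunit, were lower at an unadjusted p, against 0.82% of all genes, with -0.72 ± 0.24 and -0.47 ± 0.19. The ribosomal median was -0.10 with the other 5 libraries, and by library number it was 0.37 with 78 of 78 positive. Over 73 nuclear-encoded respiratory chain genes the median was -0.14, with 8 positive and none at an unadjusted p under 0.05. That median was -0.05 with the other 5 libraries, with 23 positive, -0.05 in HH and 0.12 by library number, with 61 positive.

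The interferon and MHC class I genes had a median of -0.36 over 25 tested, 1 of them positive, with none at an unadjusted p under 0.05. With the other 5 libraries 7 were lower (against 2.14% of all genes), 4 were positive and the median was -0.43. Ifi35, an interferon-induced protein, stood at 49.9, 80.5, 113 and 30.3 CPM at 4 h and at 30.4, 52.2 and 31.0 CPM at 16 h, with a log2 fold change of -0.85 ± 0.41 (unadjusted p = 0.0607). Its low 4 h value was that of replicate 4, level with 2 of the 16 h libraries, and its highest that of 4 h replicate 3. Over the list, the libraries that stand apart exceeded the other 5 by a median of 0.85 on the log2 scale. The median was 0.10 in HH and 0.69 by library number, and by titles it ran from -0.84 without 16 h replicate 2 to -0.08 without 4 h replicate 3, with -0.61 without 4 h replicate 4 and -0.19 without 16 h replicate 1.

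**Figure D5:**
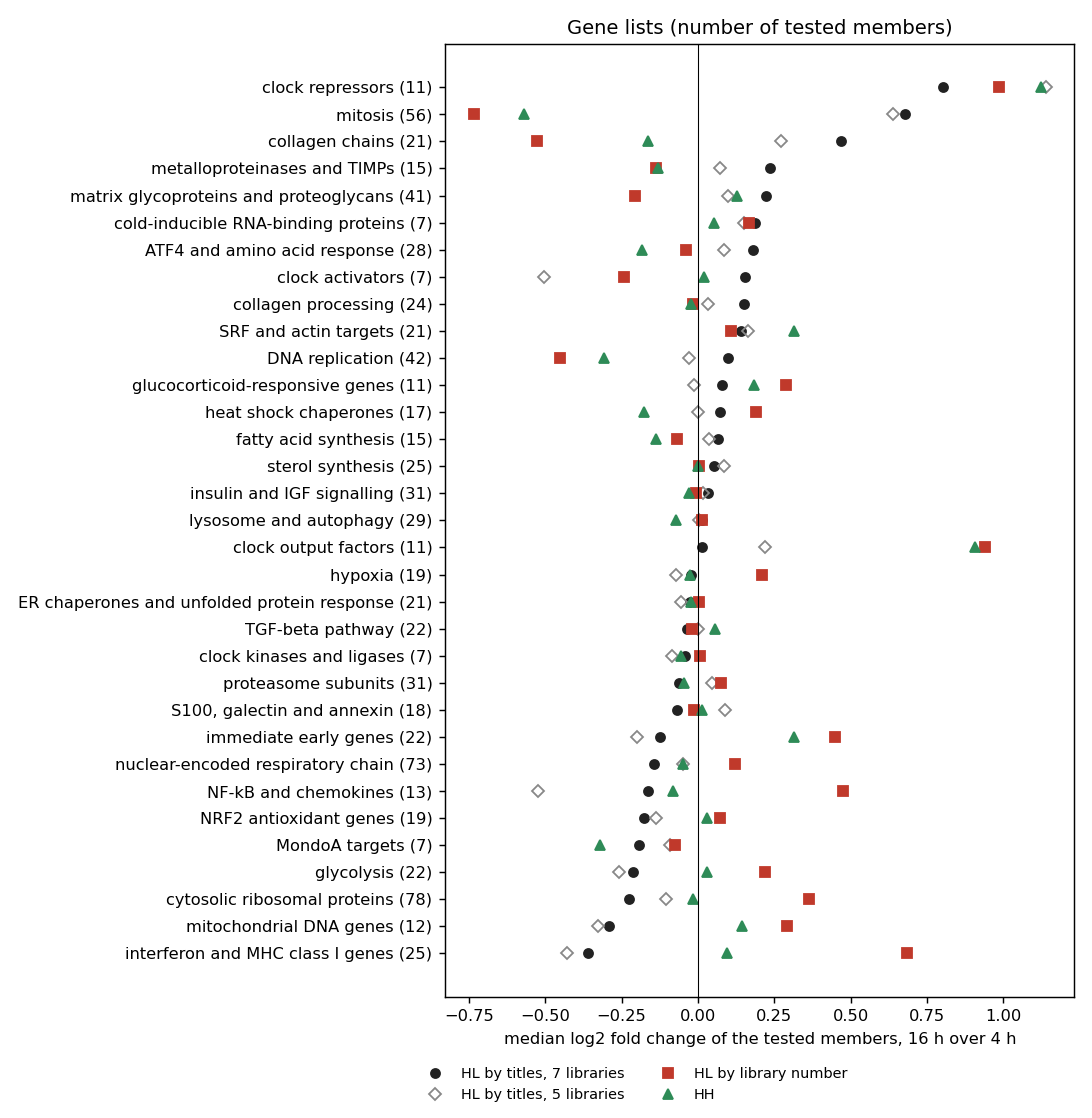
Median log2 fold change of 16 h over 4 h of the tested members of 33 gene lists (number of members in brackets) in HL by titles with 7 libraries (black), with the other 5 (open), by library number (red) and in HH (green). The clock repressors lie above 0 in all 4, at 0.80 to 1.14, while mitosis lies at 0.68 by titles and at -0.73 by library number and interferon genes at -0.36 and 0.69.

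Among genes tied to the medium itself, none passed the adjusted threshold. Over 22 glycolysis genes the median was -0.21, with 3 positive and none at an unadjusted p under 0.05. Leaving out 1 library moved this median to between -0.55 and -0.09. With the other 5 libraries it was -0.26, with 5 lower against 2.14% of all genes, and by library number it was 0.22, with 20 positive. Slc2a1, the glucose transporter GLUT1, stood at 30.5, 34.2, 53.7 and 19.7 CPM at 4 h and at 13.4, 33.8 and 17.1 CPM at 16 h, with -0.69 ± 0.39 with all libraries and -0.87 (unadjusted p = 0.00835) with the other 5. The 7 targets of the glucose sensor MondoA had a median of -0.19, 31 genes of insulin and IGF signalling 0.03, 25 of sterol synthesis 0.05 and 15 of fatty acid synthesis 0.07. In the sterol list Insig1, a sterol sensor partner, was lower at an unadjusted p under 0.05 (-0.46 ± 0.20), against 0.82% of all genes. In the insulin and IGF list 1 gene was lower, against the same share. With the other 5 libraries 2 MondoA targets were lower, and 1 insulin and IGF gene was higher and 2 lower. The shares of all genes were then 1.61% higher and 2.14% lower.

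Several other lists differed more between the pair that stands apart and the rest than between the times. The libraries that stand apart exceeded the other 5 by a median of 0.95 over 28 ATF4 and amino acid response genes, 0.76 over 17 heat shock chaperones and 1.02 over 13 NF-kB and chemokine genes, and the median over 21 SRF and actin targets was -0.73. The same difference was 0.06 over 21 genes of ER chaperones and the unfolded protein response, -0.08 over 19 hypoxia genes and 0.18 over 19 NRF2 antioxidant genes. The medians of the 16 h over 4 h log2 fold change of the ATF4, heat shock, NF-kB and SRF lists were 0.18, 0.07, -0.16 and 0.14, with no member at an unadjusted p under 0.05. Each of these medians changed sign when 1 library was left out, and ran from -0.21 to 0.43, -0.23 to 0.32, -0.67 to 0.15 and -0.01 to 0.40. With the other 5 libraries the 4 medians were 0.085, 0.001, -0.522 and 0.164. At an unadjusted p, 1 heat shock gene was then lower, 1 NF-kB gene higher and 3 lower, and 3 SRF targets higher. The shares of all genes were 1.61% higher and 2.14% lower. With all 7 libraries, 789 genes were tested across the 33 lists, 20 were higher and 9 lower at an unadjusted p, against 1.05% and 0.82% of all genes, and none passed the adjusted threshold.

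Outside the lists, the genes of smallest p did not pass the adjusted threshold either. Eif4a2, a translation initiation helicase whose introns host small nucleolar RNAs, stood at 93.2, 80.2, 128 and 43.3 CPM at 4 h and at 32.3, 29.5 and 36.5 CPM at 16 h. The groups did not overlap, and the log2 fold change was -1.39 ± 0.32 (unadjusted p = 0.00138) against 0.05 in HH and 0.01 by library number. Slc27a1, a fatty acid transporter, stood at 16.3, 12.1, 7.79 and 13 CPM at 4 h and at 5.11, 2.50 and 5.10 CPM at 16 h, with -1.53 ± 0.41 (unadjusted p = 0.00325). N4bp3, which stood at 2.20 to 4.75 CPM at 4 h and at 0.179 to 0.552 CPM at 16 h, and 2900060B14Rik, a transcript on the strand opposite to Clasp1, had -2.99 ± 0.75 and -0.94 ± 0.24. On the higher side were Sv2a, a synaptic vesicle protein (2.12 ± 0.62), and Olfml2b, a secreted olfactomedin-like protein (0.81 ± 0.24), of which Olfml2b stood at 69.1 to 92.1 CPM at 4 h and at 106, 119 and 199 CPM at 16 h.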

How the data were processed

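RNA was sequenced from its 3′ ends as single reads. The authors deposited raw counts per gene and library, with 2 sequencing runs for most libraries (121 sets for 62 libraries). The submitters' processing notes name mm10, bcl2fastq, STAR 2.6.0a and HTSeq 0.9.1; strand use in counting is not given in the sources used here. Reads outside genes made up 18.4% to 29.1% of the counts over all runs and were left out. Runs were summed, a gene was kept if 3 or more of all 62 libraries gave it 1 CPM or more (13292 of 31053 genes), and edgeR 4.0.16 (R 4.3.3, TMM scaling, quasi-likelihood test, two-sided, Benjamini-Hochberg threshold 0.05 over all genes tested) compared the 7 libraries by titles without a replicate block. The script was tested on simulated counts. CPM values were scaled by TMM over all 62 libraries, and list scores used log2(CPM + 0.5). DESeq2 1.42.0, other scalings, filters, runs, namings and left-out libraries were alternatives, of which leaving out both libraries that stand apart was added after the data were seen.

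Named genes were those of smallest p (up to 5 in each direction where none passed), all clock activators, repressors and outputs, up to 4 of smallest p from every other list, and the 5 of smallest p for each interaction, leaving out means under 1 CPM from the first and last; a few genes that these rules name are not reported here. Ereg, Nupr1, Osr1, Top2a, Spon2, Csf1r and the genes named for single libraries in the closing section were chosen after their values were seen. The groups and lists were chosen with earlier results of these data known. Gene positions follow GENCODE M21 on mm10.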

Additional observations from a re-analysis of the deposited data

Results flagged for a closer look

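In each named gene and list, the gap of the highest or lowest of the 4 HL libraries at 4 h to its nearest neighbour was divided by the range of the group. The values below are this ratio where it passed Dixon's critical value for 4 samples, which chance passes in about 1 in 20 groups. Genes chosen after their values were seen (Ereg, Nupr1, Ier3, Hspa4l, Bmp4 and Top2a) are given as a description. Without genes so chosen, 11 of 135 values tried passed, and the 3 libraries at 16 h were too few to be tried.

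Replicate 3, which stands apart, was the highest for Ereg (0.973, at 1200 CPM), Nupr1 (0.931), Tmed2 (0.931, a cargo receptor of the early secretory pathway), Ier3 (0.929, at 2859 CPM), Hspa4l (0.870, a heat shock protein) and Cry2 (0.868), and the lowest for Acaca (0.942, the first enzyme of fatty acid synthesis). It was also the highest in the score of the proteasome subunits (0.915).

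Replicate 4, the library of this group that the read summary names LH collection 1 replicate 2, was the highest for Klf15 (1, with 0.410 CPM against 0 in the others, at the level of 3 counts), Top2a (0.954), Col6a1 (0.912), Fbln2 (0.866, a matrix glycoprotein, at 863 CPM against no more than 339) and Bmp4 (0.860, a growth factor, against no more than 47.1 CPM in the others), and the lowest for Arntl2 (0.877). It was the highest in the score of the clock activators (0.902). Replicate 1 was the lowest for Bhlhe40 (0.950) and replicate 2 the lowest in the score of the clock kinases and ligases (0.915).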

How the results depend on the processing

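With all 7 libraries by titles no gene passed, and none did with library totals alone, RLE or upper quartile scaling, either stricter filter, either sequencing run, counts thinned to the shallowest library, or fits over all HL or all 62 libraries. DESeq2 called 3 genes (Nr1d1, Dbp and Nfil3), no filter beyond 1 count called 1 (Nr1d1), and the 5 libraries without the pair that stands apart called 4. Leaving out each library in turn called 0 to 2 genes, the 2 being Nr1d1 and Dbp without 16 h replicate 2, and unadjusted counts ran from 125 to 684, the highest without 4 h replicate 4. Same-numbered replicates did not deviate together (r of 0.426, -0.199 and 0.196), so the numbers were not taken to pair the samples; a replicate block called 1 gene (Nr1d1). By library number 6 genes were called. For the HL change minus the LH change, DESeq2 called 0.015% of genes and library number 1.78% of genes, where LH at 16 h is 1 library, assumed to vary like the other groups. The HL change minus the HH change called 0 in every fit run.

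Leaving out 1 library moved 8 list medians beyond the spread between replicates. Without 4 h replicate 4, collagen moved to 1.01 and the TGF-beta pathway to 0.04. Without 16 h replicate 2, glycolysis moved to -0.55, the clock activators to -0.56, hypoxia to -0.15 and cold-inducible RNA-binding proteins to 0.04. Without 4 h replicate 3, MondoA targets moved to -0.34 and the S100, galectin and annexin genes to 0.09. The replicate block moved MondoA targets to -0.33, cold-inducible proteins to 0.06 and the S100 group to 0.08. Grouping by library number moved 15 list medians, leaving out both libraries that stand apart moved 2, and the filter of a mean of 5 CPM moved 1.

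A turn of sign was counted where the estimates had opposite signs, their difference exceeded the standard error of the main one, and either had an unadjusted p under 0.05. A value near 0 can thus count, such as 0.007 for Eif4a2. Library number turned 38 of the 102 genes tried, and no other alternative turned one; the cause was not tested. By library number the log2 fold changes of the clock genes were -1.20 for Nr1d1, -0.46 for Clock, 3.56 for Per2, 1.18 for Cry1, 0.99 for Cry2, 1.19 for Hlf and 1.27 for Wee1. Those of dividing cells were -0.64 for Ube2c, -0.76 for Hmmr, -1.20 for Dlgap5, -0.47 for Prc1, -0.47 for Rfc1, -0.58 for Stmn1 and -1.32 for Top2a. Those of the matrix were -0.45 for Col16a1, -0.42 for Col6a1, -1.73 for Col5a3, -0.68 for Col3a1, -0.61 for Fn1, -0.59 for Hspg2, -0.97 for Fbln2, -0.84 for Lox, -0.65 for Bmp1, -0.88 for Mmp14 and -0.42 for Olfml2b. The others were 0.007 for Eif4a2, -0.44 for Vldlr, 1.05 for Saa3, 0.76 for Ifi35, 0.82 for Irf7, 0.96 for Ddx60, 0.20 for Zfp345, 0.13 for Rpl35a, 0.63 for Rps23, 0.61 for Rps27, 0.28 for mt-Nd1, 0.38 for mt-Co3 and 0.34 for mt-Nd5.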

Other observations

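A few genes with a negative change belong to no paragraph above. Saa3, an acute-phase protein, stood at 9.41, 11.1, 3.20 and 1.78 CPM at 4 h and at 2.76, 1.97 and 1.96 CPM at 16 h, with a log2 fold change of -1.48 ± 0.66 (unadjusted p = 0.0477, adjusted p = 1). Osgin1, a target of the antioxidant factor NRF2, stood at 11.6, 15.2, 13.4 and 10.1 CPM at 4 h and at 4.56, 8.59 and 7.85 CPM at 16 h, without overlap, with -0.85 ± 0.34 (unadjusted p = 0.0302). The chemokine Ccl2 stood at 8.51, 23.4, 109 and 2.05 CPM at 4 h and at 1.10, 61.2 and 3.73 CPM at 16 h, so that the range within each group far exceeded the distance between them.

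Across 8007 genes, the HL change by titles had an r of -0.324 with the HL change by library number, comparisons that share no library, and of -0.0857 with the HH change, or 0.0858 with the other 5 libraries. These values run across genes, which are not independent, and are given as a description.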
